A study of Mus musculus with 5 samples.

Results

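The replication-dependent histone genes are the clustered genes for the linker histone H1 and the core histones H2A, H2B, H3 and H4. They were taken by their older symbols of the form Hist1h to Hist4h. The array annotation now carries newer symbols, none of which has that form, so each gene was matched through the older names listed for its Entrez number in the RefSeq gene table. Of 70 genes with such a name, 31 had a probe set annotated to exactly 1 symbol, out of 19938 genes measured in this way. The 31 were 5 of 6 H1 genes, 5 of 20 H2A genes, 11 of 19 H2B genes, 3 of 12 H3 genes and 7 of 13 H4 genes. Each had 1 probe set. A further 38 histone genes lay only on probe sets that carry several symbols, and 1 had none in the annotation used. The older names place 23 members in the Hist1 cluster, 4 in Hist2, 3 in Hist3 and 1 in Hist4.

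The study measured expression on 5 Affymetrix arrays of lung natural helper cells, which are innate lymphocytes without antigen receptors, also called group 2 innate lymphoid cells. All came from C57Bl/6 mice aged 6 to 8 weeks and were sorted as lineage-negative, Sca-1+, CD127+ and CD25+ with c-Kit absent or low. The 3 unstimulated samples were lysed straight after the sort. The 2 stimulated samples were cultured in 200 microlitres for 3 days, in medium holding 60 ng/ml PMA, which switches on protein kinase C, and 500 ng/ml ionomycin, a calcium ionophore. The effects of culture and of the activators cannot be told apart, and no label ties the samples to different mice or culture wells. The p-values therefore reflect only how far these samples spread, and that spread may be technical.

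Histones package DNA: pairs of the 4 core histones form the nucleosome, and H1 binds the DNA between nucleosomes. Replication-dependent histone genes are transcribed mainly in S phase, when new DNA has to be packaged. Their mRNAs end in a stem-loop bound by the protein SLBP instead of a poly(A) tail. How the RNA was primed for labelling was not given in the sources used here, so how well such mRNAs were captured is unknown. Most copies of a core histone class are nearly identical in their coding sequence, and probes of 1 copy may also read others. Of the 31 members, 19 are also named on probe sets with several symbols, none of them an H1 gene. Values of single core histone copies are uncertain in this respect.

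Histone promoters carry class-specific elements. The upstream windows below belong to the member with the largest difference between the groups in each class other than H3, and are shown because H2A and H2B promoters are known to share an octamer element while H1 and H4 promoters have elements of their own. Each line gives the 250 bases before the RefSeq start site, 5′ to 3′ on the gene's strand, with matches to 5 motifs in capitals: the octamer ATTTGCAT, the CCAAT box, the TATA box as TATAAA, the H1 box AAACACA and the motif GGTCCG, taken here as the core of the H4 subtype element. Both strands were searched, so ATTGG marks a CCAAT box and ATGCAAAT an octamer on the opposite strand. No 2 motifs overlap in these windows.
H1f2, GRCm38.p6 chr13:23738557-23738806, plus strand: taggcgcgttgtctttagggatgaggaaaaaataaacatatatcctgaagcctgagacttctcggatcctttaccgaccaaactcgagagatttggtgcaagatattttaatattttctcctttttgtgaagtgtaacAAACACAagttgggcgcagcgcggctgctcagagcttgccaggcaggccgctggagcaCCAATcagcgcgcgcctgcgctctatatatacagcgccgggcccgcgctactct
H2aw, GRCm38.p6 chr11:58954435-58954684, plus strand: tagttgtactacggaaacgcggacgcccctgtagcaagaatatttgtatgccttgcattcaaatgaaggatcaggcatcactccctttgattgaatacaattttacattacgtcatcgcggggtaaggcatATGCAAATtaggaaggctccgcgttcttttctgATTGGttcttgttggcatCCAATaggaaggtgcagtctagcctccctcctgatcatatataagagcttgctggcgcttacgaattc
H2bc18, GRCm38.p6 chr3:96269450-96269699, plus strand: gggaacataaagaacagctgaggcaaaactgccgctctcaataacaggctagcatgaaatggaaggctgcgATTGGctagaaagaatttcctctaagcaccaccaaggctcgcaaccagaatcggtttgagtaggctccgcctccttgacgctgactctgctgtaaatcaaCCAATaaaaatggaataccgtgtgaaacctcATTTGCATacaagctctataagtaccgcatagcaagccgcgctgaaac
H4c4, GRCm38.p6 chr13:23581318-23581567, plus strand: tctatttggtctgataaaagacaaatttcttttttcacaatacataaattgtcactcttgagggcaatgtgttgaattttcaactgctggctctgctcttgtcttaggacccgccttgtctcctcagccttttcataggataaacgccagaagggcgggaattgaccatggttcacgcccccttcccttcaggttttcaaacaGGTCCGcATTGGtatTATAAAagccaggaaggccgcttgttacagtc

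Windows of 26 members were available. The octamer occurred in 4 of 5 H2A and 5 of 8 H2B windows and in none of 5 H1, 2 H3 and 6 H4 windows, against 1.60% of all 32851 promoter windows of the same length. GGTCCG occurred in 5 of 6 H4 windows, 1 of 8 H2B windows and none of the H1, H2A and H3 windows, against 6.72% of all windows. The H1 box occurred in 4 of 5 H1 windows, 2 of 5 H2A and 2 of 8 H2B windows, against 6.25% of all. CCAAT was in 21 of the 26 (33.8% of all windows) and TATAAA in 15 (12.4% of all). The window of H3c15, the H3 member with the largest difference, held none of the 5. In all 8 motifs were searched, and these 5 were chosen after a first look at the same windows. The 3 left aside were ATTTGCATA (7 of 26 windows, 0.591% of all), GGTCC (9 of 26, with all 6 H4 windows among them, 39.8% of all) and TTTCGCGC (1 of 26, 0.256% of all). ATTTGCATA contains the octamer and GGTCC is contained in GGTCCG. A match is a description of letters and shows no binding.

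No histone gene passed the test between stimulated and unstimulated cells. With limma and Benjamini-Hochberg adjustment over all 19938 genes, 0 of 31 members had an adjusted p under 0.05, against 1.70% of all genes (0.737% higher and 0.963% lower). At an unadjusted p under 0.05 there were 8 members lower and 1 higher, against 8.58% and 11.3% of all genes. The lowest adjusted p among the members was 0.0676, for H1f3. Other settings of the analysis called a few. Median centring called 1 member lower, H1f3 (2.64% of all genes lower), and so did quantile normalization repeated on the deposited values (3.66%). Testing only genes brighter than the overall median called 2 lower (6.91%), and a threshold of 0.1 in place of 0.05 called 2, H1f3 and H3c4 (3.49%). Without stimulated array 1, H2bc3 was called lower (1.04%), and without stimulated array 2, H2bc3 and H2bu1-ps were called higher (1.81%). The differences, all on the log2 scale and stimulated minus unstimulated, ran from -0.86 to 0.60, with a median of -0.12 over the 31 members and 0 over all genes. In all, 18 members had a negative difference, 11 a positive difference and 2 a difference of 0. The classes did not share 1 sign: the medians were -0.12 for H1, -0.22 for H2A, -0.17 for H2B, -0.48 for H3 and 0.07 for H4. The median over the 24 members other than H4 was -0.22.

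Both stimulated arrays lay below all 3 unstimulated arrays for 11 of the 31 members (35.5%), against 14.0% of all genes. They lay above all 3 for 3 members (9.68%), against 18.6% of all genes. The 11 lower ones were 3 H1, 1 H2A, 4 H2B and 3 H3 genes, and the 3 higher ones were all H4 genes. In a sample of many cells, fewer cells that express histone genes and less histone RNA per cell cannot be told apart. No test was made of the difference between classes, since copies of a class can share probes and are not replicates.

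**Figure D1:**
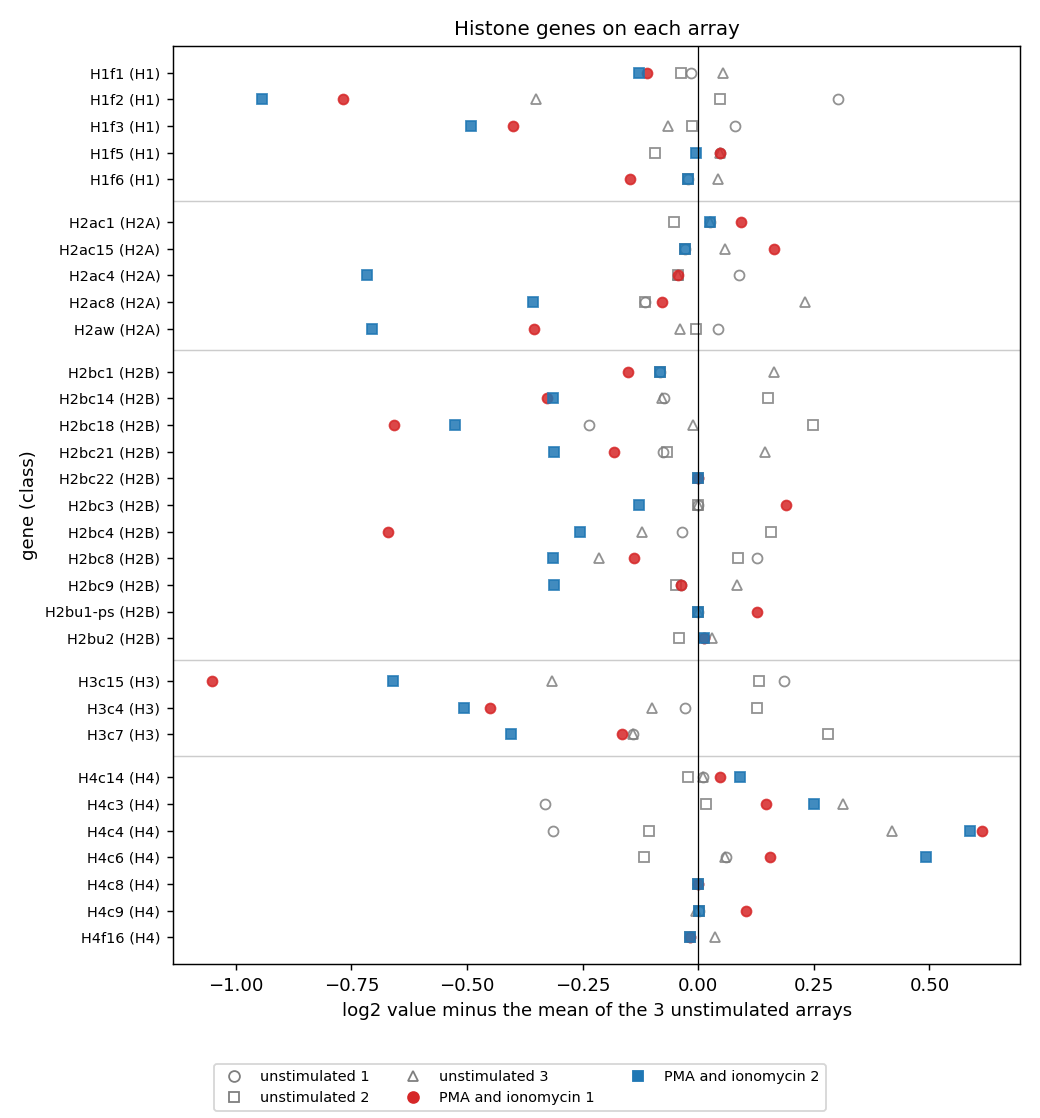
Each row is a histone gene, grouped by class, and each symbol is its RMA log2 value on an array minus the mean of the 3 unstimulated arrays; open symbols are unstimulated arrays 1 to 3, the filled circle and filled square stimulated arrays 1 and 2. Both filled symbols lie left of all open symbols for 11 genes and right of them for 3, all 3 of class H4.

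Linker histone genes were mostly lower on the stimulated arrays, and none passed the test. H1f2 (formerly Hist1h1c), a linker histone gene active in many somatic tissues, read 11.25, 10.99 and 10.60 on unstimulated arrays 1, 2 and 3 and 10.18 and 10.00 on stimulated arrays 1 and 2. The groups did not overlap, and unstimulated array 3 was nearest to the stimulated arrays. The difference was -0.86 ± 0.23 (SE, n = 3 and 2 arrays), or 1.81-fold lower, with an adjusted p of 0.171. H1f3 (Hist1h1d), another somatic linker histone gene, read 6.05, 5.95 and 5.90 against 5.57 and 5.48. Its groups were further apart than either was wide, with a difference of -0.45 ± 0.06 (SE) and an adjusted p of 0.0676. H1f1 (Hist1h1a) read 5.57, 5.55 and 5.64 against 5.48 and 5.46, a difference of -0.12 ± 0.03 (SE; adjusted p = 0.189) without overlap. The other 2 H1 genes overlapped between the groups: H1f5 (Hist1h1b) differed by 0.02, with either sign when 1 array was left out, and H1f6 (Hist1h1t), a variant known from testis, by -0.08.

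Among H2A genes, H2aw (Hist3h2a) stood apart from the unstimulated arrays on both stimulated arrays. It read 7.96, 7.91 and 7.87 in unstimulated cells and 7.56 and 7.21 in stimulated cells, so stimulated array 2 was the lower. The difference was -0.53 ± 0.12 (SE; adjusted p = 0.137). H2ac4 (Hist1h2ab) read 2.86, 2.73 and 2.73 against 2.73 and 2.05, and H2ac8 (Hist1h2ae) 2.75, 2.75 and 3.10 against 2.79 and 2.51. Both were dimmer than the lower quartile over probe sets (4.49), and only stimulated array 2 was below the unstimulated values. Their differences were -0.38 ± 0.23 and -0.22 ± 0.17 (SE; adjusted p = 0.472 and 0.492). H2ac15 differed by 0.07 (-0.029 without stimulated array 1) and H2ac1, a testis variant, by 0.06, both with overlap. Over the 3 H2A genes with a mean above the median of all probe sets (5.64), H2aw, H2ac1 and H2ac15, the class median was 0.06, so its sign turned without the dim members.

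Of the 11 H2B genes, 4 were lower on both stimulated arrays than on any unstimulated array. H2bc18 (Hist2h2bb) read 5.71, 6.19 and 5.93 against 5.29 and 5.42, a difference of -0.59 ± 0.17 (SE; adjusted p = 0.188). The unstimulated arrays spread over more than the gap between the groups. H2bc4 (Hist1h2bc) read 8.83, 9.03 and 8.75 against 8.20 and 8.61, with a difference of -0.46 ± 0.17 (SE; adjusted p = 0.276). Here stimulated array 1 was the lower and array 2 came close to the unstimulated values. H2bc14 (Hist1h2bm) read 6.70, 6.92 and 6.69 against 6.44 and 6.46, a difference of -0.32 ± 0.09 (SE; adjusted p = 0.181). The 4th, H2bc21 (Hist2h2be), differed by -0.25 ± 0.10 (adjusted p = 0.302). The other 7 overlapped, with differences from -0.23 (H2bc8) to 0.06 (H2bu1-ps, a transcribed pseudogene).

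All 3 H3 genes were lower on both stimulated arrays without overlap, and none passed the test. H3c15 (Hist2h3c2) read 6.50, 6.44 and 6.00 in unstimulated cells and 5.26 and 5.65 in stimulated cells. Stimulated array 1 was the lowest and unstimulated array 3 again the nearest to the stimulated arrays. The difference was -0.86 ± 0.23 (SE; adjusted p = 0.170), or 1.81-fold lower. H3c4 (Hist1h3d) read 5.93, 6.09 and 5.86 against 5.51 and 5.45, a difference of -0.48 ± 0.08 (SE; adjusted p = 0.0900), and the gap between the groups was wider than the spread of either. H3c7 (Hist1h3f) read 2.99, 3.42 and 2.99 against 2.97 and 2.73, again dimmer than that quartile. Its difference was -0.28 ± 0.18 (SE; adjusted p = 0.475), and stimulated array 1 lay only just under the unstimulated values.

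H4 was the class in which differences were above 0 for most members, 5 of 7, again with none past the test. All H4 genes code for the same core histone. H4c4 (Hist1h4d) read 7.54, 7.75 and 8.28 against 8.47 and 8.45. The stimulated arrays were nearly equal, and unstimulated array 3 lay closer to them than to unstimulated array 1. The difference was 0.60 ± 0.26 (SE; adjusted p = 0.344), or 1.52-fold higher. H4c6 (Hist1h4f) read 5.91, 5.74 and 5.91 against 6.01 and 6.35, a difference of 0.32 ± 0.13 (SE; adjusted p = 0.328), with array 2 the higher of the stimulated arrays. H4c3 (Hist1h4c) read 5.19, 5.53 and 5.83 against 5.66 and 5.77, so the groups overlapped and the difference of 0.20 ± 0.22 (SE; adjusted p = 0.649) was no larger than its error. Against unstimulated array 3 alone it was -0.11. H4c14 (Hist2h4) was higher without overlap by 0.07 ± 0.02 (SE; adjusted p = 0.225). H4c9 differed by 0.05, H4c8 by 0 and H4f16 by -0.02, the last turning to 0.0028 after median centring and 0.0012 after quantile normalization of the deposited values.

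**Figure D2:**
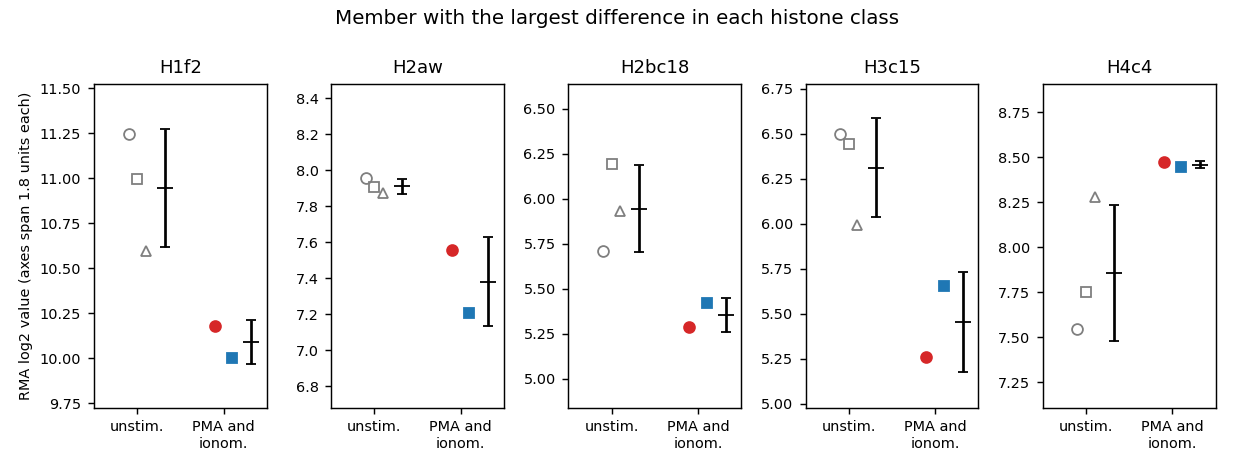
RMA log2 values of the member with the largest difference in each class, with open symbols for the 3 unstimulated arrays, filled symbols for the 2 stimulated arrays, and a black dash and bar for the mean and SD of each group. H1f2, H2aw, H2bc18 and H3c15 are lower and H4c4 is higher on both stimulated arrays than on any unstimulated array.

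Taken apart, the stimulated arrays gave the same sign of the class median in all 5 classes but not the same size. For H2A on array 1 that sign rests on a repeated value. The H1 median was -0.15 on stimulated array 1 and -0.13 on array 2, relative to the unstimulated mean of each gene. For H2A it was -0.04 and -0.36, for H2B -0.14 and -0.26, for H3 -0.45 and -0.51, and for H4 0.10 and 0.09. The H2A value on array 1 is that of H2ac4, a dim gene with the same value on unstimulated arrays 2 and 3. Unstimulated array 2 had the same H2A median, -0.04. Array 1 lay below all unstimulated arrays for 13 members and above all of them for 8, against 25.9% and 28.2% of all genes. Array 2 lay below for 16 and above for 3, against 21.5% and 29.6%. The 3 members above on array 2 were all of class H4, and on array 1 the 8 were 2 H2A, 2 H2B and 4 H4 genes. The median over all 31 members was -0.04 on array 1 and -0.13 on array 2, and the -0.04 is again the value of H2ac4.

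Many members carried a value repeated on several arrays. Of the 31, 17 (54.8%) gave the same value, to 5 decimals, on at least 2 arrays, against 62.0% of all genes. The share was 2 of 5 for H1, 4 of 5 for H2A, 6 of 11 for H2B, 1 of 3 for H3 and 4 of 7 for H4. For 13 members a value was shared between a stimulated and an unstimulated array. H2bc22 (Hist1h2bp) had the value 5.69 and H4c8 (Hist1h4h) the value 4.70 on all 5 arrays, so their difference of 0 gives no comparison of the groups. H2bc3 (Hist1h2bb) had 5.71 on all 3 unstimulated arrays and read 5.89 and 5.58 on stimulated arrays 1 and 2, on either side of it. H2bu1-ps had 5.08 on 4 arrays and 5.21 on stimulated array 1. H4f16 (Hist4h4) had 5.63 on 4 arrays and 5.69 on unstimulated array 3, and H2bu2 (Hist3h2ba) had 5.43 on both stimulated arrays and unstimulated array 1. The 14 members with 5 different values had a median difference of -0.38, against 0 for the 17 with repeated values, and 10 of the 14 were lower and 2 higher without overlap, against 30.8% and 41.2% of the 7579 genes with 5 different values. When genes with repeated values were left out of the fit, limma called 6 of these 14 lower and none higher, against 15.3% and 20.4% of the 7579 genes kept. The 6 were H1f2 (adjusted p = 0.0222), H1f3 (0.0314), H2aw (0.0323), H2bc18 (0.0369), H3c15 (0.0221) and H3c4 (0.0301). That choice keeps genes by their measured values, so it is an alternative and not the main result.

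The 27 histone probe sets with several symbols name no single gene, and were fitted together with all 35556 probe sets, a fit added after the data had been seen. None was called, against 0.872% of all probe sets, and none had an unadjusted p under 0.05, against 19.4%. By their median difference, the H2B, H3 and H4 sets went the same way as the members. The 7 H2B probe sets differed by -0.23 to -0.11 and the 10 H3 probe sets by -0.20 to -0.09. In each class 2 sets were lower on both stimulated arrays than on any unstimulated array, against 15.0% of all probe sets. The 2 H2B sets had the same values on all 5 arrays, so they count as 1 measurement. In both classes stimulated array 2 was the further from the unstimulated mean, with medians of -0.36 for H2B and -0.21 for H3, against -0.06 and -0.06 on array 1. The 3 H2A probe sets differed by -0.07 to 0.02, where the median of the H2A members was -0.22. The set at -0.07 names H2aw and Trim17. The sets with 20 and 19 symbols each differed by 0.02. Both lay above all unstimulated arrays on stimulated array 1 (0.09 and 0.12 from the unstimulated mean). On stimulated array 2 both lay below all of them (-0.06 and -0.08). Of the 6 H4 probe sets, the 5 with 11 symbols differed by 0.50 to 0.60 (adjusted p = 0.264 to 0.309), and all 5 were higher on both stimulated arrays, against 17.9% of all probe sets. They read 7.45 to 8.13, 7.87 to 8.35 and 8.14 to 8.63 on unstimulated arrays 1, 2 and 3, and 8.45 to 8.94 and 8.38 to 8.79 on the stimulated arrays. The values on unstimulated array 3 thus lay between the other unstimulated arrays and the stimulated ones, as for H4c4. The other H4 set, with 2 symbols, differed by 0.14, and its stimulated arrays disagreed. It lay above all unstimulated arrays on stimulated array 1 (0.51 from the unstimulated mean) and below all of them on array 2 (-0.24). The 11 symbols of the 5 H4 sets include those of the members H4c3, H4c4, H4c6, H4c8 and H4c9. These sets are not independent of each other or of the members. Besides the H2B repeat, 1 of the 5 H4 sets with 11 symbols repeats the values of another on all 5 arrays. In addition, 8 of the 10 H3 sets had a value shared by several arrays.

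**Figure D3:**
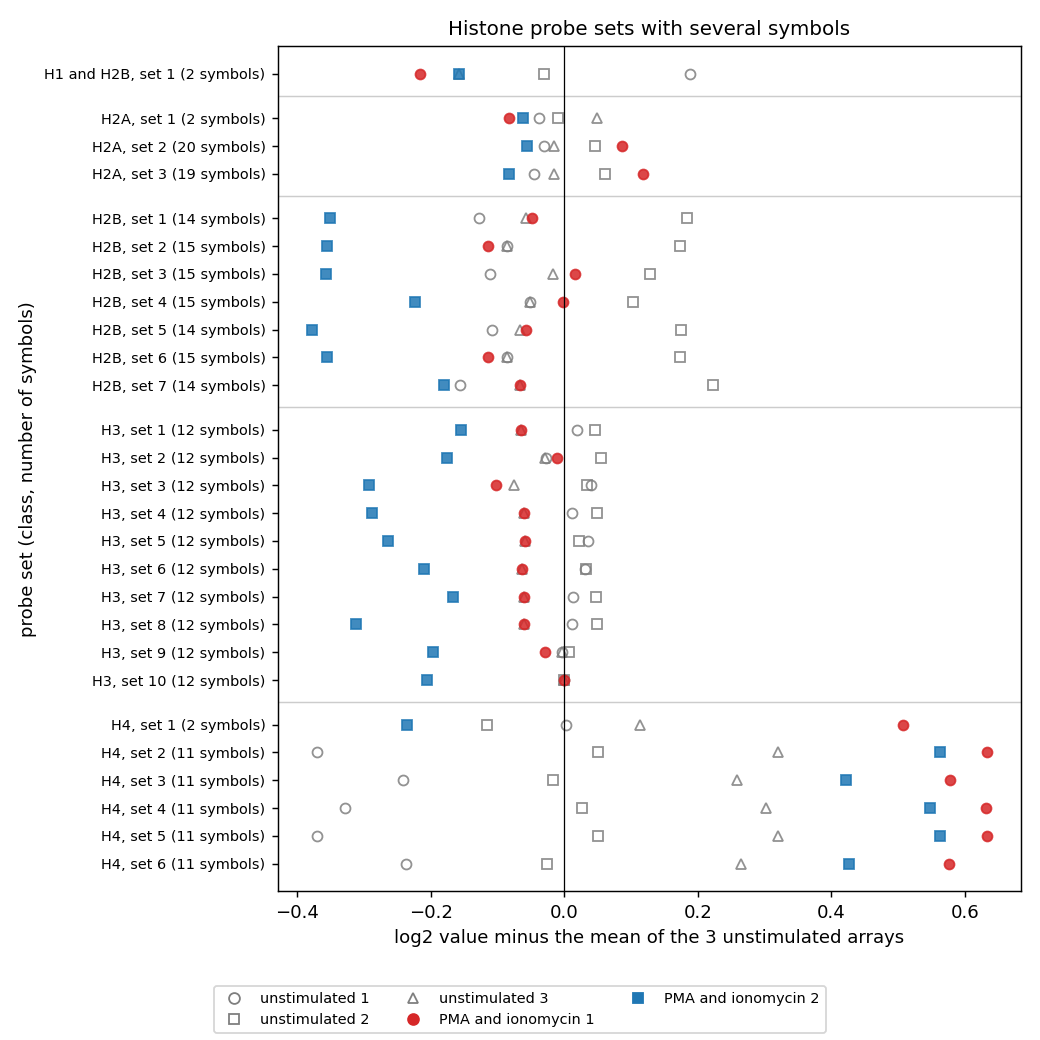
Rows are the 27 histone probe sets with several symbols, by class, with the log2 value on each array minus the mean of the 3 unstimulated arrays; symbols are as in the plot of single genes. The 5 H4 sets with 11 symbols lie to the right on both stimulated arrays, and the H3 sets lie left of 0 on stimulated array 2.

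Genes that act with the histones were counted from lists. Of 18 measured genes for transcription and 3′ end processing of histone mRNA, Tut4, a terminal uridylyltransferase that adds uridines to RNA ends, read 10.49, 10.50 and 10.45 against 9.21 and 9.27. It fell by 1.24 on the log2 scale (SE 0.03; adjusted p = 0.0158). It was the 1 call among the 18, against 1.70% of all genes. No gene at all was called with the replicate number as a block or without unstimulated array 2, so this call is lost there. Without unstimulated array 1 only 5 of all genes were called lower. The list's median was 0.13, with 9 of the 18 higher and 1 lower without overlap, against 18.6% and 14.0% of all genes. Slbp, which codes for the stem-loop binding protein, read 8.03, 8.05 and 7.93 against 8.11 and 7.80, with overlapping groups. Npat, whose product activates histone gene transcription, read 6.49, 6.37 and 6.61 against 6.82 and 6.64, a difference of 0.24 ± 0.10 (SE; adjusted p = 0.357). Lsm10, a subunit of the particle that helps to cut histone pre-mRNA, differed by 1.13 ± 0.28 (SE; adjusted p = 0.152). None of 18 histone chaperone and chromatin assembly genes was called (median 0.14; 33.3% higher and 11.1% lower without overlap, against 18.6% and 14.0% of all genes). Hat1, which acetylates newly made H4, had the widest difference of them, 1.09 ± 0.13 (SE; adjusted p = 0.0614). None of 12 replication-independent histone genes, whose products are used outside S phase too, was called either (median -0.01). H2az2 differed by -0.34 ± 0.09 and Cenpa, the H3 variant of centromeres, by 0.42 ± 0.32 (SE; adjusted p = 0.174 and 0.491).

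No S phase gene was called. The median of the list was above 0, as was that of the H4 class, where those of the H1, H2A, H2B and H3 classes were below. Over 25 measured S phase genes the median was 0.76 above the unstimulated mean on stimulated array 1 and 0.18 above on array 2. Array 1 was above all unstimulated arrays for 22 of the 25 and array 2 for 10, against 28.2% and 29.6% of all genes. For 15 mitosis genes the medians were 0.61 and 0.09. On stimulated array 1, where both medians were highest, the medians of the H1, H2B and H3 classes were below 0 and that of H4 was 0.10. The H2A median there was -0.04, the same as on unstimulated array 2. The unstimulated arrays also differed in these lists, with S phase medians of -0.22, 0.05 and 0.11 on arrays 1, 2 and 3. Tyms, a thymidylate synthesis gene, differed by 1.06 ± 0.11 (SE; adjusted p = 0.0510) and Gins1, a gene of the replicative helicase, by 2.06 ± 0.59 (SE; adjusted p = 0.187). Tk1, a thymidine kinase gene, went the other way: it read 8.39, 8.50 and 8.09 against 7.62 and 7.54, a difference of -0.75 ± 0.15 (SE; adjusted p = 0.109) without overlap.

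**Figure D4:**
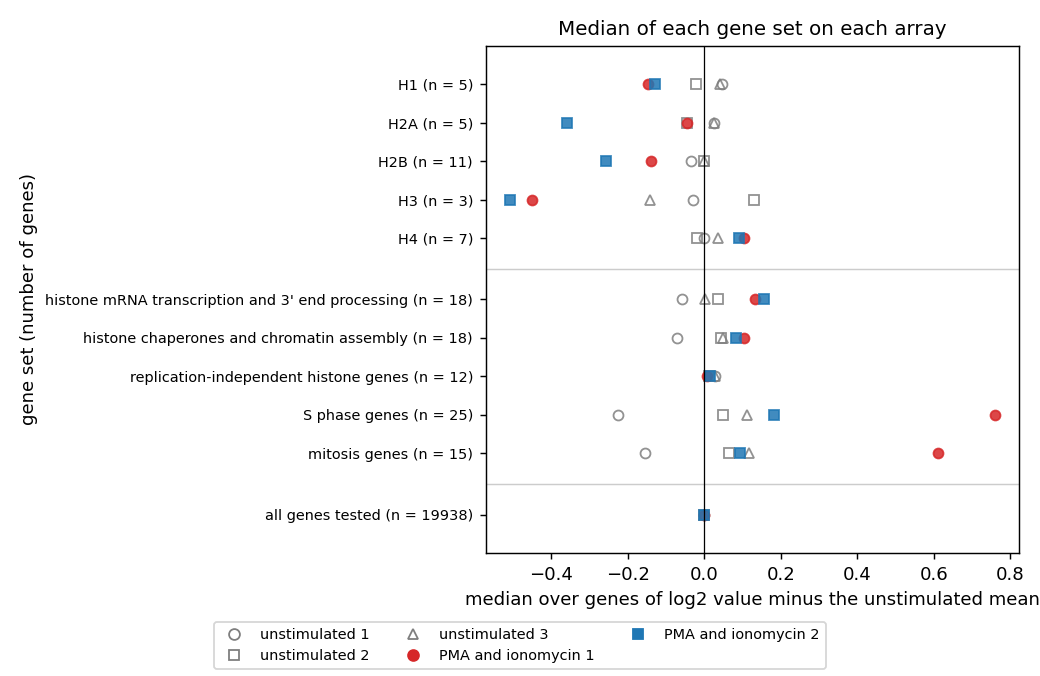
Each row is a histone class or gene list, with the median over its genes of the log2 value minus the unstimulated mean on each array; symbols are as in the plot of single genes. The S phase and mitosis medians lie at 0.76 and 0.61 on stimulated array 1, where those of H1, H2A, H2B and H3 lie between -0.45 and -0.04. That of H4 lies at 0.10 there, and the H2A value of -0.04 is the same as on unstimulated array 2.

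The arrays were close to each other as a whole: medians were 5.63 to 5.66, and Pearson's r over probe sets (not independent points) was 0.980 to 0.988 within unstimulated, 0.989 within stimulated and 0.956 to 0.969 between the groups. The natural helper cell markers Il7r, Gata3, Rora and Id2 read 10.55 to 10.97 on the unstimulated arrays. Of 8 such markers Kit, Il7r, Id2 and Rora fell (adjusted p = 0.0229 to 0.0456), against 0.963% of all genes called lower. These calls too are lost with the block or without unstimulated array 2. Thy1 and Gata3 were lower without overlap but not called. Il2ra, the gene for CD25, was higher without overlap by 0.19, and Ptprc overlapped with a difference of 0.03. For the 8, the summed log2 values were 84.8 to 85.6 on unstimulated and 78.3 on both stimulated arrays. No marker of another cell type was called, with lowest adjusted p-values of 0.168 for endothelium, 0.260 for lung epithelium, 0.0778 for myeloid cells, 0.145 for T cells and 0.475 for B cells. Of 4 endothelial markers 3 were lower on both stimulated arrays than on any unstimulated array, against 14.0% of all genes, with summed log2 values of 26.1 to 32.1 on unstimulated and 23.4 to 24.5 on stimulated arrays, and Cdh5 read 9.71, 9.06 and 7.12 against 5.59 and 6.19. Of 4 lung epithelium markers 3 were lower in the same sense, against the same share, with sums of 26.0 to 30.9 against 23.8 and 23.8. Sums for 6 myeloid markers were 30.8 to 34.0 against 27.7 to 28.0, for 5 T cell markers 34.0 to 37.3 against 33.3 to 34.0, and for 3 B cell markers 13.9 to 16.7 against 14.2 to 14.4. The only measured erythroid marker, Alas2, read 5.59 to 5.66 against 5.66 and 5.84. No marker was at 0, but without detection calls this does not show that any of them was expressed. Unstimulated array 3 had the lowest sum among unstimulated arrays for the endothelial, epithelial, myeloid, T cell and B cell lists. Of the members without overlap, it was nearest to the stimulated arrays for H1f2, H1f3, H2aw, H2bc4, H2bc14, H3c4, H3c15 and H4c4. Unstimulated array 1 or 2 was the nearest for H1f1, H2bc18, H2bc21 and H4c6, and arrays 1 and 3 tied for H3c7 and H4c14. The part of other cells in the histone values was not tested.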

How the data were processed

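The deposited table is on the log2 scale and was made by RMA, a method that corrects background, quantile-normalizes and summarises probes, per the submitters' processing notes. Neither its version nor which arrays were normalized together is given in the sources used here. The authors' table holds 35556 probe sets on 5 arrays and no detection calls. The number of arrays limits the precision. No file names a genome build, so coordinates appear only for RefSeq promoter windows (GRCm38.p6).

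Probe sets were named by the platform annotation: 21789 carry 1 symbol, 1621 several, and 12146 are not in it. Where a gene had several, the one brightest on average across the 5 arrays stood for it, giving 19938 genes. Groups and replicate numbers came from the sample titles.

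The test was limma's (version 3.58.1, R 4.3.3), with lmFit and eBayes and no filter. Adjusted p under 0.05 (Benjamini-Hochberg, over all genes) counts as called. Residual degrees of freedom were 3, and eBayes added 0.649. A permutation test of 3 against 2 arrays cannot go below 0.1, so none is given. The scripts were run on simulated data, where the only pass rule was a small bias of the recovered differences. Those data held no repeated values, so the run does not show power or false calls for the measured data.

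The older histone names came from the RefSeq gene table by Entrez number. The members, lists and tests were chosen with earlier results of these data known. Genes named with values are the 3 members per class with the largest difference, members with 1 value on all arrays of a group, up to 4 genes per list with the largest difference, and others where a count is small. Slbp, Npat, Tk1 and the single cell markers were chosen after their values were seen, as were the promoter motifs. Plots used matplotlib 3.10.9 in Python 3.11.15. Alternatives are in the closing section.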

Additional observations from a re-analysis of the deposited data

How the results depend on the processing

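Higher calls among the 31 members stayed at 0 under every alternative except without Lung_P/I replicate 2, where they came to 2 (H2bc3 and H2bu1-ps), so leaving out 1 array gave 0 to 2. Lower calls came to 0 to 1 without 1 array, the 1 being H2bc3 without Lung_P/I replicate 1. H2bc3 and H2bu1-ps have 1 value on all 3 unstimulated arrays. Lower calls were 2 at an adjusted p under 0.1 (3.49% of all genes), 2 among the 20 members above the median of all probe sets (6.91%), 1 with median centring (2.64%), 1 with quantile normalization again (3.66%) and 6 among the 14 members without a shared value (15.3%). Genes called over all tested were 147 higher and 192 lower as reported, and 45 and 66 with robust eBayes. They were 825 and 729 with quantile normalization again, and 660 and 526 with median centring. Without Lung_unstim replicate 1 they were 2 and 5, and without Lung_unstim replicate 2 they were 0 and 0. With the replicate block 0 genes were called (lowest adjusted p among the members 0.167; 8 members at an unadjusted p under 0.05) and the members' median was -0.063. Deviations of arrays with the same number from their group means correlated at -0.14 and -0.06. The deviations of the 2 stimulated arrays are mirror images, so these are not separate checks. They cannot show whether arrays with the same number share a mouse or a sort.

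Members' medians above the median of all probe sets were -0.20 over all, -0.45 for H1, 0.060 for H2A, -0.24 for H2B, -0.67 for H3 and 0.20 for H4. Without genes with a shared value they were -0.38, -0.45, -0.53, -0.32, -0.67 and 0.32. These rest on 14, 3, 1, 5, 2 and 3 members, so the H2A value is that of H2aw alone. Leaving aside testis variants and the pseudogene, an alternative chosen after seeing the data, gave -0.17 over all, -0.28 for H1 and -0.23 for H2B. Against Lung_unstim array 3 alone, also added later, they were -0.17 for H1 and -0.24 for H2B. Without 1 array the ranges were -0.14 to -0.044 over all, -0.15 to -0.09 for H1, -0.36 to -0.044 for H2A, -0.26 to -0.13 for H2B, -0.53 to -0.42 for H3 and 0.054 to 0.10 for H4. For 21 genes every alternative was run, except where its filter left the gene out. Among them directions turned for H2bc3 (-0.13 to 0.19 without 1 array) and H2bu2 (-0.0082 to 0.027 without 1 array, -0.016 against array 3 alone). They also turned for H4c3 (-0.11 against array 3 alone) and H4f16 (0.0028 with median centring, 0.0012 with quantile normalization again). The other members were run only without 1 array, where H1f5 (-0.026 to 0.047) and H2ac15 (-0.029 to 0.16) turned. The cause was not tested. Few arrays and no detection calls limit the dim members.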
